A study of Mus musculus with 6 samples.

Results

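Mitochondrial ribosomal protein genes were taken from the count table of verapamil-treated and control mouse osteoblasts as every gene whose symbol is Mrpl or Mrps followed by a number and at most 1 letter. This gave 78 of the 17491 listed genes, of which 51 encode proteins of the large subunit and 26 proteins of the small subunit. The remaining member, Mrps36, carries the family's name, but its product is now known mainly as a subunit of the 2-oxoglutarate dehydrogenase complex. The choice used names alone, and all 78 members passed the filter on low counts.

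Mitochondrial ribosomes translate the few proteins encoded by mitochondrial DNA, all of them membrane subunits of the respiratory chain and ATP synthase. Their ribosomal RNAs come from the mitochondrial genome, whereas all of their proteins are encoded in the nucleus, made in the cytosol and imported. Some of these proteins have relatives in bacterial ribosomes, and others are specific to mitochondria. In osteoblasts, respiration accompanies differentiation, and matrix synthesis draws on both respiration and glycolysis.

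The cells were osteoblasts grown from wildtype mesenchymal stem cells, which came from the marrow of mouse femurs and tibias. All were kept to day 7 in low-glucose osteogenic medium that held ascorbic acid, dexamethasone and β-glycerophosphate. The 6 libraries fall into 3 controls and 3 from verapamil-treated cells, verapamil being a drug that blocks L-type calcium channels. The labels give no strain, age, dose or length of exposure. Nothing in them says that replicates came from separate cultures or animals. The p-values therefore measure only how far these libraries differ, which may be technical. Control libraries differed from each other more than verapamil libraries did. The chi-square of counts per degree of freedom was 12.6 to 49.9 between pairs of controls and 3.57 to 6.21 between pairs of verapamil libraries. The fit used 1 spread per gene for both groups.

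Library totals ran from 18.2 M to 21.7 M estimated reads. The members together received 34258 to 44610 reads per library, and the median member 421.5 to 533. Osteoblast markers were present in every library, but 11 of 12 were lower with verapamil, and their summed level was 51228 to 65289 CPM in control and 30755 to 31293 CPM in verapamil libraries. CPM here means reads per 1e6 reads after scaling for library composition with the trimmed mean of M-values (TMM). Of 18 macrophage markers, 14 were higher and 4 did not pass, none was at 0, and their summed level was 9993 to 12491 CPM in control and 17770 to 19960 CPM in verapamil libraries. Of 18 cell cycle genes, 9 were higher and 1 lower, at 624 to 795 against 875 to 904 CPM summed. DESeq2 called 15 of the 18 higher and limma-voom 12. Of 15 hypoxia response genes, 10 were lower. Control replicate 2 stood apart on these, at 7408 CPM summed, where the other controls were at 4918 and 3116 and verapamil libraries at 2237 to 2603. The part of these shifts in the values below was not tested, and in bulk RNA a change in the mix of cells and a change of RNA per cell cannot be told apart.

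Start-site sequence, which the choice by name did not use, is shown first. Of the 78 members, 69 had an entry in RefSeq's table of start-site windows (GRCm38.p6), each reaching from 250 bases before to 50 bases after an annotated start. Windows were searched on both strands for 3 motifs known from genes of mitochondrial biogenesis. These were the letters AAGATGGC of YY1, GCGCATGCG of NRF1 and CCGGAAGT of the ETS factors that include GABP. The YY1 letters stood in 12 members (17.4%) against 5.08% of the 10604 tested genes with a window. NRF1 letters stood in 7 members (10.1%) against 3.98%, and ETS letters in 12 (17.4%) against 8.69%. At least 1 of the 3 was found in 29 members (42.0%) and in 16.6% of all tested genes with a window, and 40 members with a window held none of them. A match of letters is a description of the sequence and not a site of binding.

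The stretches around the YY1 letters are given from the highest to the lowest log2 fold change of the gene, 5′ to 3′ on the gene's strand, with GRCm38 coordinates and the matching letters in capitals.
Mrpl49 (chr19:6057722-6057749, minus strand): ttgaggcgccAAGATGGCagcagcggtg
Mrpl35 (chr6:71823744-71823771, minus strand): ggcaggctgcAAGATGGCggcttccatc
Mrpl42 (chr10:95501905-95501932, minus strand): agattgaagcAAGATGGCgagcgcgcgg
Mrps24 (chr11:5707652-5707675, minus strand): gcgccggcccAAGATGGCgtggtc
Mrps18a (chr17:46111005-46111032, plus strand): ggtgcgttccAAGATGGCggccctcagg
Mrpl36 (chr13:73330969-73330996, plus strand): gtgaccttacGCCATCTTtcttcctggc
Mrps12 (chr7:28742003-28742030, minus strand): catggacgcaGCCATCTTggagtggaaa
Mrpl37 (chr4:107066823-107066850, minus strand): tgcacgggcaAAGATGGCggcgtccagg
Mrps27 (chr13:99344790-99344817, plus strand): ggtgcgctccAAGATGGCggctcccatg
Mrps11 (chr7:78783014-78783041, plus strand): tacgggcgccGCCATCTTtctgtcttcc
Mrps7 (chr11:115604148-115604175, plus strand): gacagcggccAAGATGGCtgcccccgcg
Mrpl32 (chr13:14613262-14613287, minus strand): cgcgctctGCCATCTTtacccggaaa
In the 8 members where the match followed the start, it read in the direction of the gene, at 12 to 37 bases after the start. In 6 of these, Mrpl49, Mrpl35, Mrps24, Mrps18a, Mrps27 and Mrps7, the ATG inside the letters was the annotated start codon, so that the match overlapped the beginning of the coding sequence. In Mrpl36, Mrps12, Mrps11 and Mrpl32 the letters lay before the start and in reverse complement. Of these 12 genes, 6 rose with verapamil, and their median log2 fold change was 0.25. Without the letters, 14 of 57 rose, with a median of 0.15.

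The stretches around the NRF1 letters follow in the same order, with overlapping matches merged. Mrpl32 held them at 87 and at 23 bases before its start.
Mrpl22 (chr11:58171621-58171649, plus strand): gcctcggactGCGCATGCGtatagtcagc
Mrpl9 (chr3:94443298-94443327, plus strand): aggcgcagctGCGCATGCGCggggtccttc
Mrpl39 (chr16:84735350-84735379, minus strand): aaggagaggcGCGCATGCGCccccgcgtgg
Mrpl17 (chr7:105811080-105811108, minus strand): ccgagttactGCGCATGCGtcctctgaga
Mrpl32 (chr13:14613105-14613134, minus strand): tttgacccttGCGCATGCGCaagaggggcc
Mrpl32 (chr13:14613042-14613070, minus strand): gcggacttaaCGCATGCGCtcagcccgcg
Mrpl10 (chr11:97041437-97041465, plus strand): cccagctccaCGCATGCGCatagcggccc
Mrps18b (chr17:35916646-35916674, minus strand): aacggcccgaCGCATGCGCactgggagca
Among the 7 members that hold them, 1 rose, Mrpl22, and the median log2 fold change was 0.01, against 19 of 62 and a median of 0.16 among members without them. With the ETS letters, 5 of 12 rose (median 0.12), and 15 of 57 did without them (median 0.16). These counts also stand beside 15.4% of all tested genes that were higher. The share that was higher among all tested genes holding each motif was not counted. No test was made of these differences.

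To show the sequence before 3 members with large rises, the stretches before Mrps6 (chr16:92058086-92058269, plus strand), Mrpl34 (chr8:71464676-71464925, plus strand) and Mrpl22 (chr11:58171414-58171660, plus strand) are given as far as they overlap no annotated exon. Mrpl49, whose log2 fold change of 0.42 was above the 0.38 of Mrpl22, is not shown here. Mrpl22 was the only member with the NRF1 letters that rose. Coordinates are those of GRCm38, and capitals mark the NRF1 letters.
Mrps6: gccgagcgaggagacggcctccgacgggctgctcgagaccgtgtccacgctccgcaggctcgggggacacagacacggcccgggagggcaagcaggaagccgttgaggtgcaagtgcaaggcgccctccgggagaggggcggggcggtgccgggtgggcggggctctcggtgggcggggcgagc
Mrpl34: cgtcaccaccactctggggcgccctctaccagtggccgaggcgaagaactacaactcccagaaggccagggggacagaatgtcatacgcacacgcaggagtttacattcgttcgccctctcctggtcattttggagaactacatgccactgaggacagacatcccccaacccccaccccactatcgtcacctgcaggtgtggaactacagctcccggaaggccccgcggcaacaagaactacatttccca
Mrpl22: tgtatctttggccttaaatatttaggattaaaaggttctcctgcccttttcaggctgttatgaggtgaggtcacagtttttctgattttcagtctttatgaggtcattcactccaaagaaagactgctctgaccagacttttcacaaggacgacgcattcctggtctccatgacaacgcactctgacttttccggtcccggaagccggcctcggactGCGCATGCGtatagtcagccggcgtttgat
Neither the stretch of Mrps6 nor that of Mrpl34 held any of the 3 motifs, and in Mrpl22 the NRF1 letters began 33 bases before the RefSeq start.

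The question asked of the counts was how verapamil changes RNA levels in these cells. RNA for mitochondrial ribosomal proteins was higher with verapamil by a small amount spread over many members. It made up 0.172%, 0.171% and 0.174% of all reads in control replicates 1, 2 and 3, and 0.2005%, 0.2007% and 0.206% in verapamil replicates 1, 2 and 3. Summed over the 78 members, the level was 1753, 1830 and 1733 CPM in control and 1943, 1960 and 2004 CPM in verapamil libraries. Every verapamil library was above every control library on both scales, and the means, 1772 ± 51.2 and 1969 ± 31.4 CPM (SD, n = 3), had a ratio of 1.11.

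Of the 78 members, 20 rose (25.6%), 0 fell and 58 did not pass the test. This was the quasi-likelihood test of edgeR, with p adjusted by Benjamini-Hochberg over all 13366 tested genes and a threshold of 0.05. Across all tested genes, 15.4% were higher and 16.3% lower. At an unadjusted p under 0.05, 31 members were higher and 0 lower by edgeR, with 31 higher by limma-voom and 19 by DESeq2. The share of all tested genes at this unadjusted threshold was not counted. After adjustment, DESeq2 and limma-voom also called 0 members lower. They called 12 members (15.4%) and 19 members (24.4%) higher, against 13.6% and 15.7% of all tested genes. The median log2 fold change, verapamil over control, was 0.15 among members and 0.01 among all tested genes, and 71 members had a positive value. Values ran from -0.09 for Mrps28 to 0.57 for Mrps6, and 8 members lay above 0.3. Verapamil values all lay above control values in 39 members and all below in 0, against 25.2% and 24.4% of all tested genes (49.6% in either direction).

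**Figure D1:**
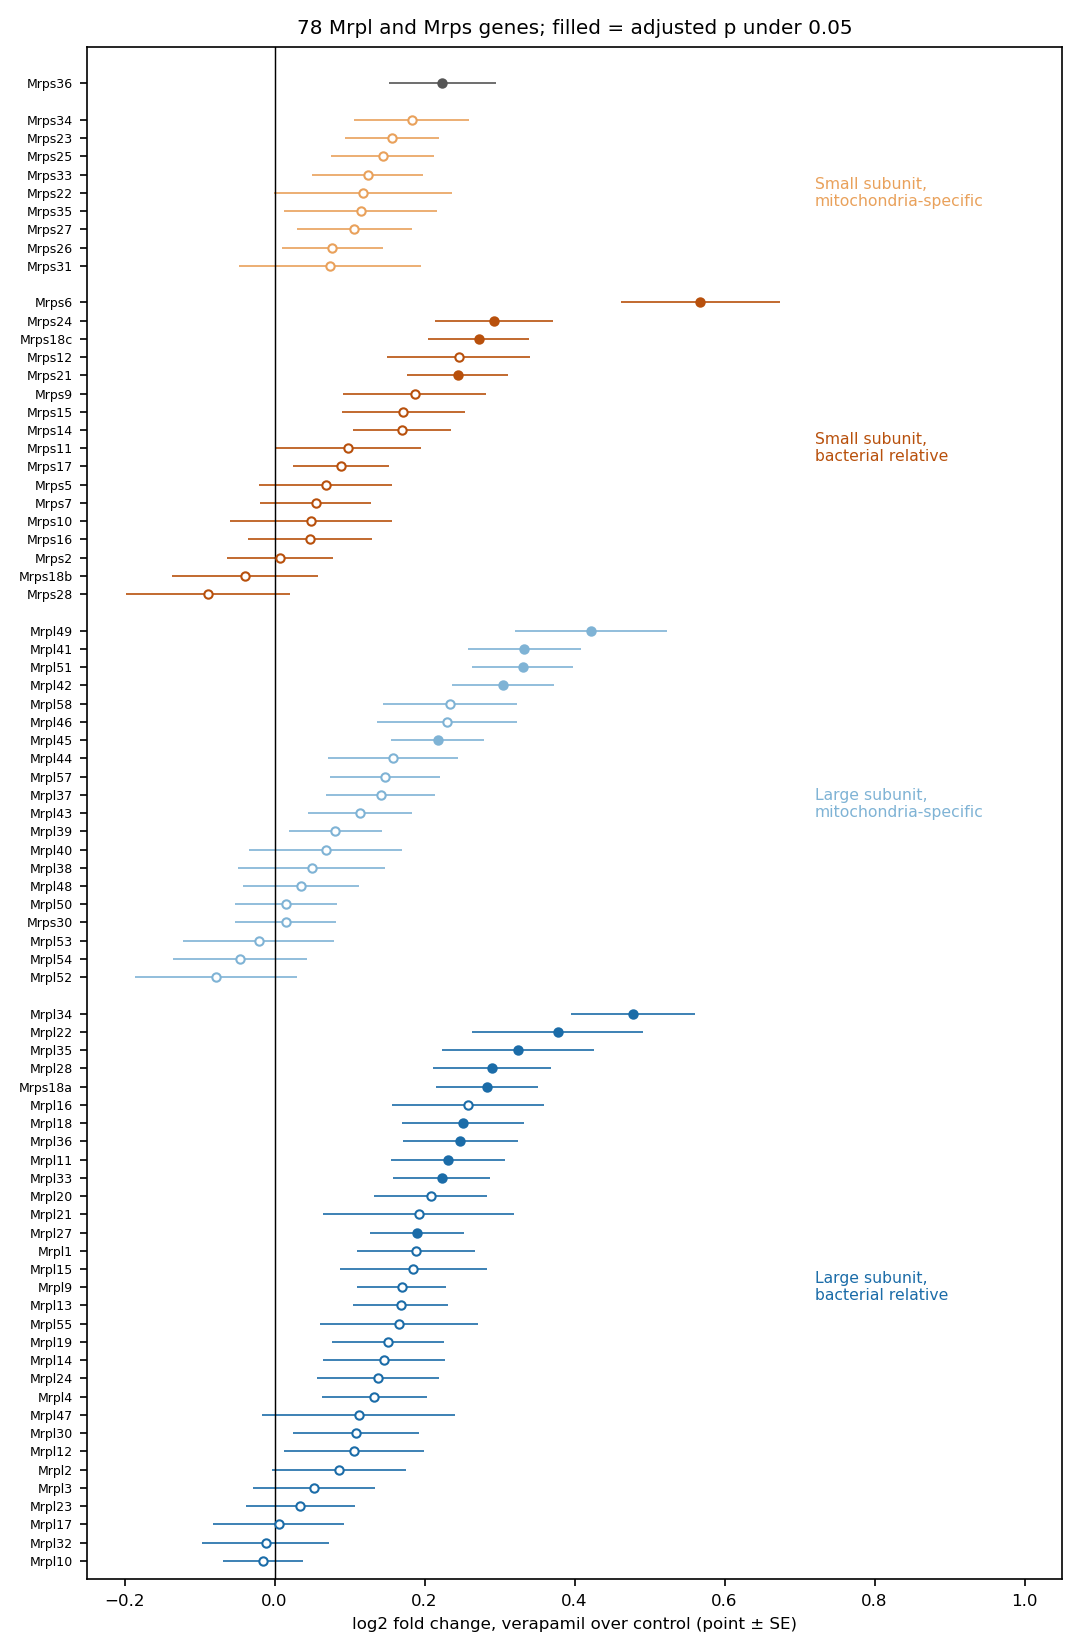
Log2 fold change of verapamil over control (horizontal axis, points with SE) for each of the 78 members, grouped by subunit and by whether a bacterial relative is known. Filled points passed the test (20 members). Nearly all points lie right of 0, and the highest are Mrps6 at 0.57 and Mrpl34 at 0.48.

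The number that rose depended on the libraries and on the scaling. The standard error (SE) of a change ran from 0.05 to 0.13, beside the median change of 0.15. The number was 7 when control replicate 1 was left out, and 6, 4 and 4 when verapamil replicates 1, 2 and 3 were. As shares of the 78 members these are 8.97%, 7.69%, 5.13% and 5.13%, and over all tested genes 9.01%, 7.61%, 7.49% and 9.13% were higher without those libraries. Without control replicate 3 the number was 15 (19.2%, against 18.2% of all tested genes), and DESeq2's test gave 12 (15.4% against 13.6%). In all 6 of these settings the members' share was near or below the background. Without control replicate 2 the number was 23 (29.5%). Scaling by library totals alone gave 37, and then 63.7% of all called genes were higher in place of 48.5%. The median of the members stayed above that of all tested genes under each of these settings, by 0.11 to 0.17, and 0 members were lower in each of them.

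**Figure D2:**
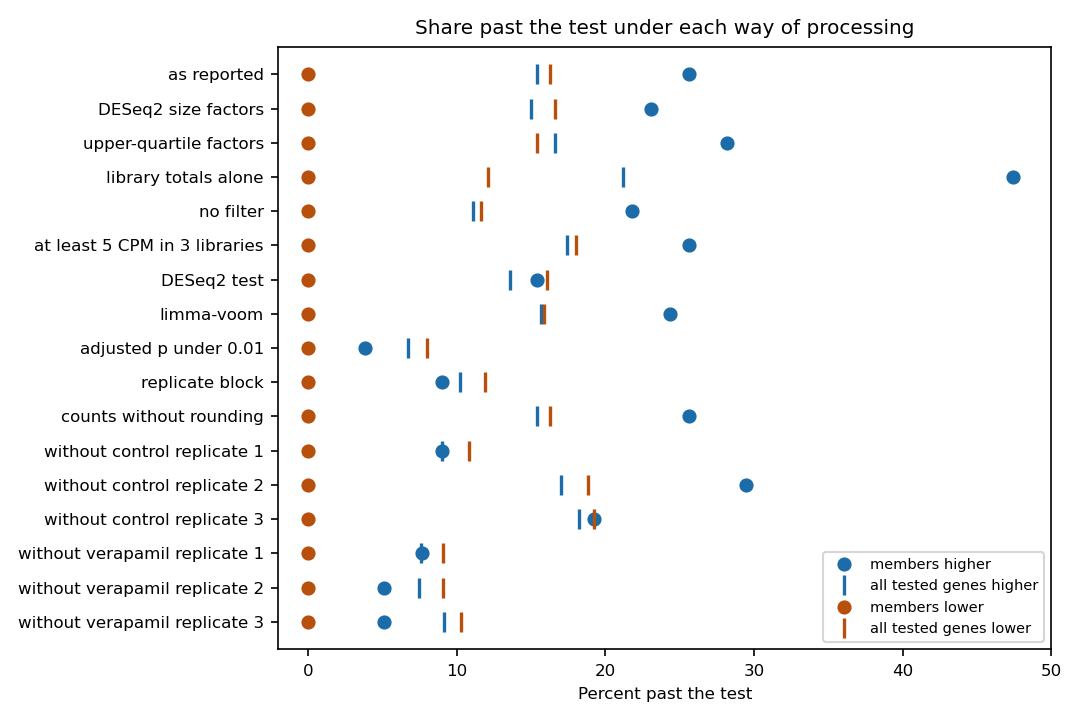
Percent of members (dots) and of all tested genes (ticks) that passed the test as higher (blue) or lower (orange), for the reported fit and each other way of processing. Dots for lower members stay at 0 throughout, while dots for higher members run from 3 of 78 at an adjusted p under 0.01 to 37 of 78 with library totals alone.

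Large subunit members rose in 15 of 51 cases (29.4%, median 0.16) and small subunit members in 4 of 26 (15.4%, median 0.12). Across all tested genes 15.4% were higher. Both subunits had the same ratio of summed levels, 1.11, at 1163 to 1230 against 1305 to 1357 CPM for the large and 552 to 583 against 618 to 627 CPM for the small subunit. Members with a bacterial relative rose in 14 of 48 cases (29.2%, median 0.17), and mitochondria-specific members in 5 of 29 (17.2%, median 0.12). These contrasts depended on the tool. By DESeq2's test, 4 of 31 large subunit members with a bacterial relative rose, and 4 of 20 mitochondria-specific ones. In the small subunit, 4 of 17 members with a bacterial relative rose by that test, and 13.6% of all tested genes were higher. In the small subunit, 0 of the 9 mitochondria-specific members passed edgeR's test, and 0 passed by DESeq2 or limma-voom, although their values were all positive, from 0.07 for Mrps31 to 0.18 for Mrps34. At an unadjusted p under 0.05, 2 of them were higher and 0 lower by edgeR. Of these 9, Mrps23, Mrps34 and Mrps25 passed when libraries were scaled by totals alone. Mrps23 also passed without control replicate 2 (adjusted p = 0.0189), and Mrps34 without control replicate 3. The other 6 passed in none of the 15 other settings tried at this threshold. The differences between these groups of members were not tested.

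Mrps6 encodes a small subunit protein with a bacterial relative (Entrez 121022, chromosome 16, 92058270 to 92112227, plus strand, 3 exons). It stood at 19.0, 16.0 and 21.4 CPM in control replicates 1, 2 and 3, and at 29.3, 28.2 and 26.2 CPM in verapamil replicates 1, 2 and 3. The lowest verapamil value was well above the highest control value, and the rise was 0.57 ± 0.11 SE (adjusted p = 0.00564). Its first exon shares 159 bases, 18.8% of its exonic bases, with Slc5a3 on the same strand, which encodes the sodium-dependent inositol transporter. Slc5a3 was at 54.8 ± 17.9 and 64.7 ± 4.01 CPM (0.24 ± 0.23 SE, adjusted p = 0.475), and the value of Mrps6 is uncertain as far as reads of the shared exon could have been assigned to either gene. Another protein-coding model on the same strand, Gm49711, shares 305 bases (36.1%) of the Mrps6 exons, but is not among the listed genes.

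Mrpl34, a large subunit protein of 92 amino acids (Entrez 94065, chromosome 8, 71464959 to 71465747, plus strand, 2 exons), was measured at 14.0, 13.6 and 14.7 CPM in control and 20.8, 18.1 and 19.9 CPM in verapamil libraries. Control values were close together and all below the verapamil values, with a rise of 0.48 ± 0.08 SE (adjusted p = 0.00418). Mrpl51, mitochondria-specific and also of the large subunit (Entrez 66493, chromosome 6, 125191801 to 125196269, plus strand), was at 32.4, 34.1 and 30.7 CPM in control and 38.8, 40.6 and 42.7 CPM with verapamil, again without overlap (0.33 ± 0.07 SE, adjusted p = 0.00779). Mrps6, Mrpl34 and Mrpl51 were the 3 members that passed the test in each of the 15 settings tried at this threshold, including without each library in turn.

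Mrpl49 (Entrez 18120, chromosome 19, 6053622 to 6057785, minus strand), a mitochondria-specific large subunit protein, rose by 0.42 ± 0.10 SE, from 16.5, 18.1 and 20.9 CPM to 24.6, 26.7 and 23.2 CPM (adjusted p = 0.0154). It shares 91 exonic bases with Syvn1 on the opposite strand, which fell by 0.35, though not without verapamil replicates 1 or 2 (adjusted p = 0.0763 and 0.0537). Leaving out control replicate 1, verapamil replicate 1 or verapamil replicate 2 ended the call (adjusted p = 0.0583 to 0.0732). Mrpl22, which lines the tunnel through which the new chain leaves, was at 9.91, 10.3 and 9.37 CPM in control and 11.01, 12.9 and 14.3 CPM with verapamil (0.38 ± 0.11 SE, adjusted p = 0.0357). Verapamil replicate 1 lay close to the controls in this gene. Its adjusted p was 0.0629 to 0.136 when control replicate 1, control replicate 3, verapamil replicate 2 or verapamil replicate 3 was left out. The mitochondria-specific large subunit genes Mrpl41 (0.33 ± 0.08 SE, 17.1 ± 0.789 to 21.5 ± 1.06 CPM) and Mrpl42 (0.30 ± 0.07 SE, 24.5 ± 1.17 to 30.2 ± 1.22 CPM) rose, Mrpl41 not without verapamil replicates 2 or 3 (adjusted p = 0.0638 and 0.0527) and Mrpl42 not without verapamil replicates 1 or 3 (adjusted p = 0.0611 and 0.0507). Mrpl35, with a bacterial relative, rose by 0.32 ± 0.10 SE (adjusted p = 0.0406), but passed without only 1 of the 6 libraries, control replicate 2 (adjusted p of the others 0.0546 to 0.128). Mrpl35 also did not pass by DESeq2's test or with the replicate number as a block. That block ended the call of Mrpl22 as well.

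**Figure D3:**
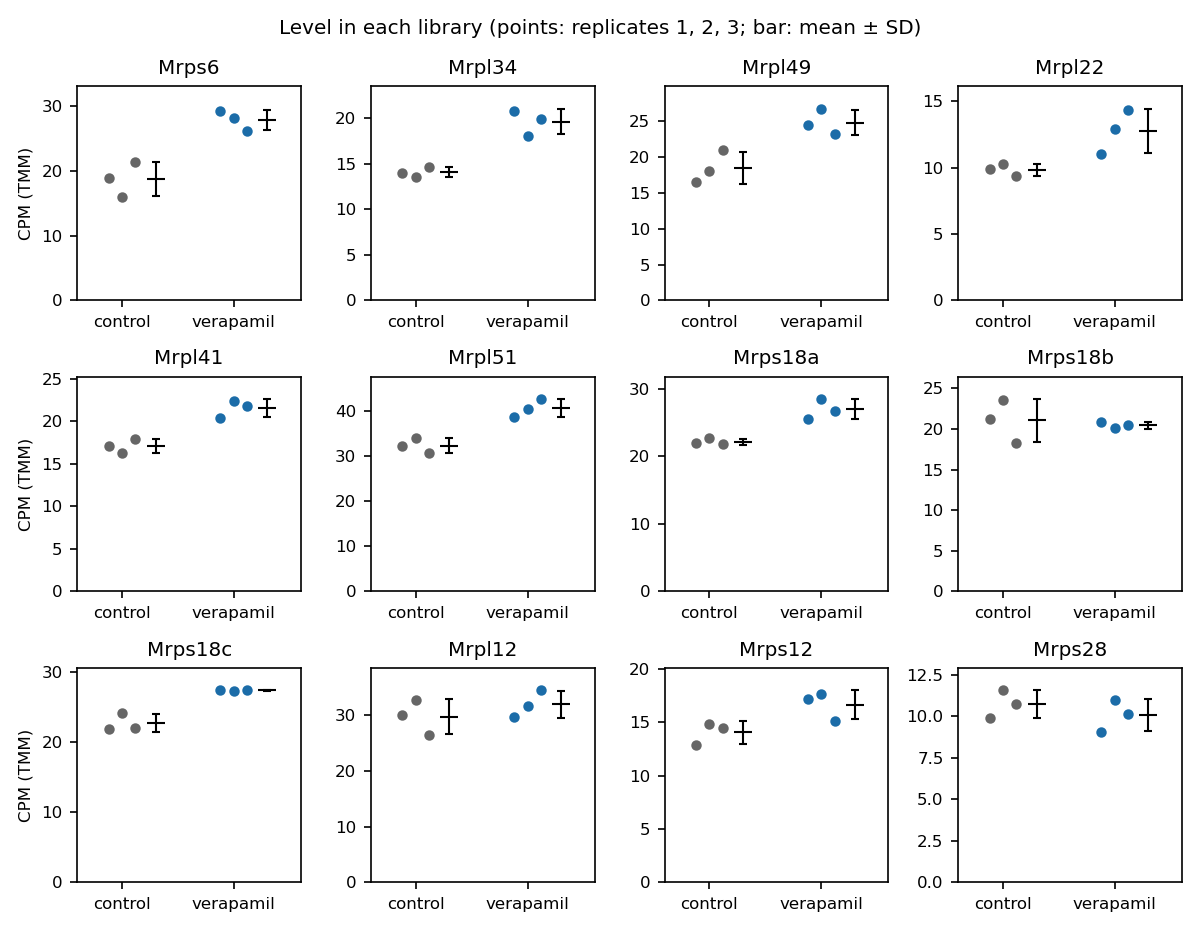
Level of 12 members in each library (vertical axis, CPM after TMM scaling, from 0), with replicates 1, 2 and 3 from left to right as points and the mean ± SD beside them. Control and verapamil points are apart in the 6 genes from Mrps6 to Mrpl51 and overlap in Mrps18b, Mrpl12 and Mrps28.

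The smallest changes that passed lay between 0.19 and 0.25. They were Mrpl27 (0.19), Mrpl45 (0.22), Mrpl33 (0.22), Mrps36 (0.22), Mrpl11 (0.23), Mrps21 (0.24), Mrpl36 (0.25) and Mrpl18 (0.25). Mrpl27 reaches towards the peptidyl transferase centre, Mrpl11 lies at the base of the stalk and Mrpl45 holds the ribosome to the inner membrane at the tunnel exit. Mrpl27, at 30.5, 29.5 and 28.4 CPM in control and 33.9, 32.3 and 34.6 CPM in verapamil libraries, stood at adjusted p = 0.0491 and did not pass without any 1 of the 6 libraries (adjusted p = 0.0549 to 0.169). Of these 8 genes, Mrpl33 passed without control replicates 1 and 2, and Mrpl45, Mrps36, Mrpl11 and Mrps21 without control replicate 2 alone. Mrpl36 and Mrpl18 passed without control replicate 3 alone. Over the leave-outs in which these 7 genes were lost, adjusted p ran from 0.0517 to 0.176. By DESeq2's test 7 of the 8 did not pass, all but Mrps21 (adjusted p = 0.0610 to 0.134). With no low-count filter, Mrpl27, Mrps36 and Mrpl11 were at an adjusted p of 0.0587 to 0.0651. The call was also lost for Mrpl27 and Mrpl11 with DESeq2's size factors (adjusted p = 0.0568 and 0.0526) and for Mrpl27 by limma-voom (adjusted p = 0.0516). With the replicate number as a block, only 7 members remained higher, and none of Mrpl45, Mrpl33, Mrps36, Mrpl11, Mrps21 and Mrpl18 was among them.

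3 members descend from the S18 protein of bacteria and occupy different places. Mrps18a sits in the large subunit in spite of its name, and Mrps18b and Mrps18c sit in the small subunit. Mrps18a was at 22.0, 22.6 and 21.8 CPM in control and 25.6, 28.5 and 26.7 CPM in verapamil libraries, a rise of 0.28 ± 0.07 SE (adjusted p = 0.0156). Mrps18c was at 21.8, 24.1 and 22.0 CPM and at 27.4, 27.2 and 27.4 CPM, a rise of 0.27 ± 0.07 SE (adjusted p = 0.0172). Mrps18b was at 21.3, 23.6 and 18.3 CPM in control and 20.9, 20.1 and 20.4 CPM with verapamil (-0.04 ± 0.10 SE, adjusted p = 0.792), so that its groups overlapped while those of both relatives did not. The difference between the 3 genes was not tested. Mrps18a no longer passed when control replicate 1, verapamil replicate 2 or verapamil replicate 3 was left out (adjusted p = 0.0535 to 0.0779). For Mrps18c this held of control replicate 1 and of each verapamil library (adjusted p = 0.0621 to 0.0685).

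Members with special roles did not pass in several cases. Mrpl12, which recruits translation factors to the stalk, was at 30.01, 32.8 and 26.5 CPM in control and 29.7, 31.7 and 34.6 CPM with verapamil (0.11 ± 0.09 SE, adjusted p = 0.421), with overlapping groups. Mrps12, at the decoding centre, was at 12.9, 14.8 and 14.5 CPM and at 17.2, 17.6 and 15.1 CPM (0.25 ± 0.10 SE, adjusted p = 0.0823). Mrpl58, a peptidyl-tRNA hydrolase that rescues stalled ribosomes, was at 12.7, 14.6 and 15.1 CPM and at 16.3, 16.2 and 17.2 CPM (0.23 ± 0.09 SE, adjusted p = 0.0776). In Mrps12 and Mrpl58 every verapamil value was above every control value, and both passed when libraries were scaled by totals alone (adjusted p = 0.0322 and 0.0331). Mrps12 also passed without control replicate 2 (adjusted p = 0.04997) and Mrpl58 without control replicate 3 (adjusted p = 0.0473). Closest to 0 in their groups were Mrpl17 (0.01 ± 0.09 SE), Mrps30 (0.01 ± 0.07 SE), Mrps2 (0.01 ± 0.07 SE) and Mrps31 (0.07 ± 0.12 SE). By place in the ribosome, 1 of 3 stalk proteins, 2 of 8 proteins around the tunnel exit and 2 of 9 of the central protuberance and its surroundings rose. Across all tested genes 15.4% were higher. In the same order, DESeq2's test called 0, 1 and 0 of these proteins higher, and limma-voom 1, 2 and 1.

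Levels per length differed widely between members although all but Mrps36 belong to 1 particle. Per kb of the annotated transcript with the longest coding sequence, the mean over all libraries ran from 2.35 CPM per kb for Mrpl47 to 73.2 CPM per kb for Mrps21, with a median of 15.4. All tested genes had a median of 8.72 CPM per kb. The highest in each group were Mrpl33 (65.4 and 76.4 CPM per kb in control and verapamil), Mrpl52 (46.3 and 43.7), Mrps21 (67.0 and 79.3) and Mrps23 (31.3 and 34.9). Mrpl52 did not pass (-0.08 ± 0.11 SE, adjusted p = 0.616) and had overlapping groups. The lengths are those of annotated models, in which Mrpl17 has 7300 bases and Mrpl52 has 418, and models with long untranslated ends give low values per kb.

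The share of members that rose is given by protein length as a description, with no test. Of 23 members with up to 150 amino acids, 11 rose (47.8%, median 0.21), of 28 with over 150 and up to 250 amino acids 7 rose (median 0.13), and of 27 longer ones 2 rose (7.41%, median 0.12). All tested genes followed the same order, with 26.4%, 23.0% and 13.4% of genes higher in these classes and medians of 0.12, 0.08 and -0.01. Spearman's rho of log2 fold change with protein length was -0.25 over the 78 members and -0.20 over 12940 tested genes with a coding model, as a description across genes of the same libraries. Cytosolic ribosomal proteins are also short, and of 39 with up to 150 amino acids 1 was higher (median 0.04). The part of transcript length in the members' values was not tested.

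**Figure D4:**
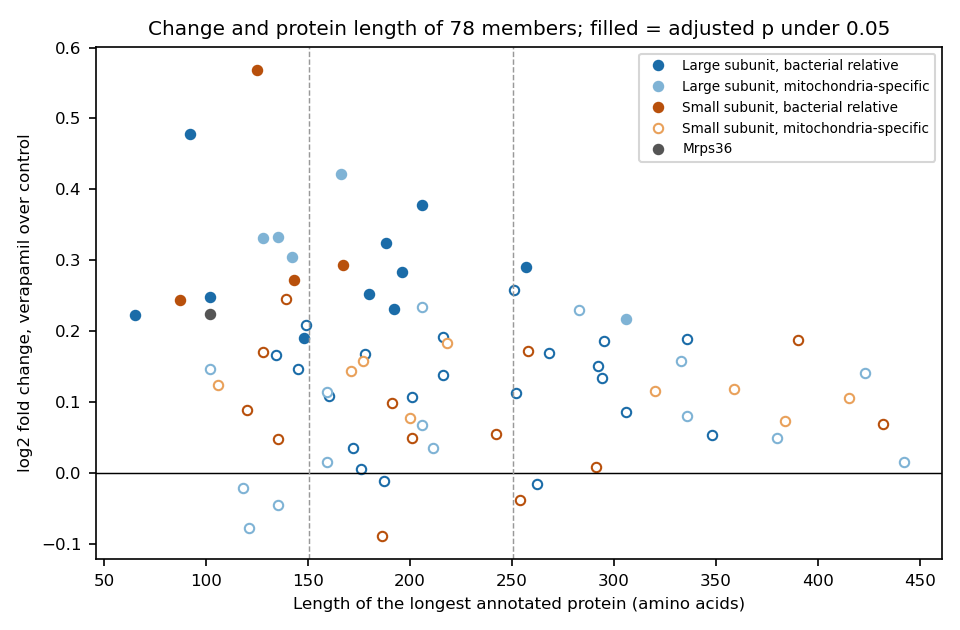
Log2 fold change (vertical axis) against the length of the longest annotated protein in amino acids (horizontal axis) for the 78 members, coloured by group, filled where the test was passed; dashed lines mark the borders of the length classes. Of the 20 filled points, 11 lie in the class of up to 150 amino acids and 2 above 250.

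Members lay on 17 chromosomes, and 23 of them had a protein-coding gene on the opposite strand whose start lay within 1000 bases before theirs or overlapped it by under 200 bases. Of these partners, 5 were higher, 1 was lower, 16 did not pass and 1 was not tested. The shares over all tested genes were 15.4% higher and 16.3% lower. In 6 pairs the changes of member and partner had opposite signs. Both genes rose in 2 pairs. One was Mrpl36 with Ndufs6, a subunit of complex I, whose starts overlap by 29 bases and which went from 22.9 ± 0.697 to 27.6 ± 1.09 CPM (0.27, adjusted p = 0.0157). Ndufs6 did not pass without verapamil replicates 2 or 3 (adjusted p = 0.0646 and 0.0727). The other was Mrpl41 with the lipase gene Pnpla7 (35.3 ± 2.56 to 58.2 ± 1.74 CPM, 0.72, adjusted p = 3.85e-04). Mrpl49 starts 59 bases from Fau, which encodes a cytosolic ribosomal protein and stood at 320.7 ± 51.0 and 316.6 ± 5.86 CPM (-0.02, adjusted p = 0.918). These partners were chosen after their values were seen.

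Other parts of the mitochondrial translation machinery were counted in lists written with earlier results of these data known. Of 5 mitoribosome proteins that carry other names, 0 passed edgeR's test (0 by DESeq2 and limma-voom; 1 higher and 0 lower at an unadjusted p under 0.05 by edgeR), with a median of 0.03. The most abundant, Dap3, a GTP-binding protein of the small subunit, was at 48.5, 55.9 and 47.4 CPM in control and 45.0, 46.6 and 45.2 CPM with verapamil (-0.15 ± 0.07 SE, adjusted p = 0.159). Of 26 assembly factors, 2 rose (7.69%) and 1 fell (3.85%), with a median of 0.07. Across all tested genes 15.4% were higher and 16.3% lower. Mtg1, a GTPase of large subunit assembly, rose from 4.85 ± 0.348 to 6.91 ± 0.273 CPM (0.51 ± 0.11 SE, adjusted p = 0.0107), and Mpv17l2, an inner membrane protein needed for ribosome assembly, from 14.6 ± 0.741 to 19.9 ± 0.896 CPM (0.45 ± 0.08 SE, adjusted p = 0.00401). Rcc1l, named after its value was seen, fell by 0.29 (adjusted p = 0.0472), but not by DESeq2's test (adjusted p = 0.0851). Of the 6 leave-outs it passed in 1, without control replicate 3 (adjusted p of the others 0.0602 to 0.163). It also missed the threshold with upper-quartile factors, library totals alone or no filter (adjusted p = 0.0584 to 0.121). Without verapamil replicate 1, Mtg1 was at adjusted p = 0.0521.

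Of 16 translation factors and mRNA-handling proteins, 1 rose (6.25%, against 15.4% of all tested genes), and the median was 0.08. It was Slirp (16.1 ± 1.67 to 20.1 ± 0.489 CPM, 0.32 ± 0.09 SE), the partner of Lrpprc in keeping mitochondrial mRNAs stable. Leaving out control replicate 1 or a verapamil library put Slirp at an adjusted p of 0.0714 to 0.0949. Among 17 mitochondrial aminoacyl-tRNA synthetases, Sars2 for serine (0.35 ± 0.11 SE, adjusted p = 0.0417) and Fars2 for phenylalanine (0.34 ± 0.10 SE, adjusted p = 0.0277) rose, with a median of 0.04 for the list. Together they were 11.8% of the list, below the 15.4% of all tested genes. Sars2 passed without only 1 of the 6 libraries, control replicate 3, and Fars2 without only control replicate 2 (adjusted p of the others 0.0517 to 0.131). By DESeq2's test Sars2 did not pass (adjusted p = 0.114), nor did it with no low-count filter (adjusted p = 0.0553).

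Regulators of mitochondrial transcription and biogenesis had 3 of 14 members lower and 0 higher by edgeR's test (the same counts by DESeq2 and limma-voom; 1 higher at an unadjusted p under 0.05 by edgeR), with a median of -0.04. The share that was lower, 21.4%, was near the 16.3% of all tested genes. Myc, a transcription factor that promotes ribosome production, fell from 47.5, 64.2 and 42.9 CPM to 24.5, 23.6 and 25.3 CPM (-1.07 ± 0.14 SE, adjusted p = 0.00194). Pprc1, a coactivator related to PGC-1α, fell from 42.6, 53.4 and 38.6 CPM to 28.0, 27.1 and 27.0 CPM (-0.71 ± 0.11 SE, adjusted p = 0.00298). Control replicate 2 was the highest library for both, as it was for hypoxia response genes. The third gene, Gabpb1, named after its value was seen, fell by 0.36. Yy1 (-0.03), Nrf1 (-0.11), Gabpa (0.04) and Tfam (-0.04) did not pass and were also named after their values were seen.

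For comparison, gene sets taken by name pattern after the values were seen gave 1 higher and 0 lower of 83 tested cytosolic ribosomal protein genes (median 0.04), and 47 higher and 2 lower of 82 tested nuclear subunits of oxidative phosphorylation (median 0.22). Summed cytosolic ribosomal protein levels were 34978 ± 4295 and 35486 ± 1330 CPM, overlapping between groups. Summed oxidative phosphorylation levels had a ratio of 1.12, close to the 1.11 of the members. These lists share libraries with the members, and differences between them were not tested.

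**Figure D5:**
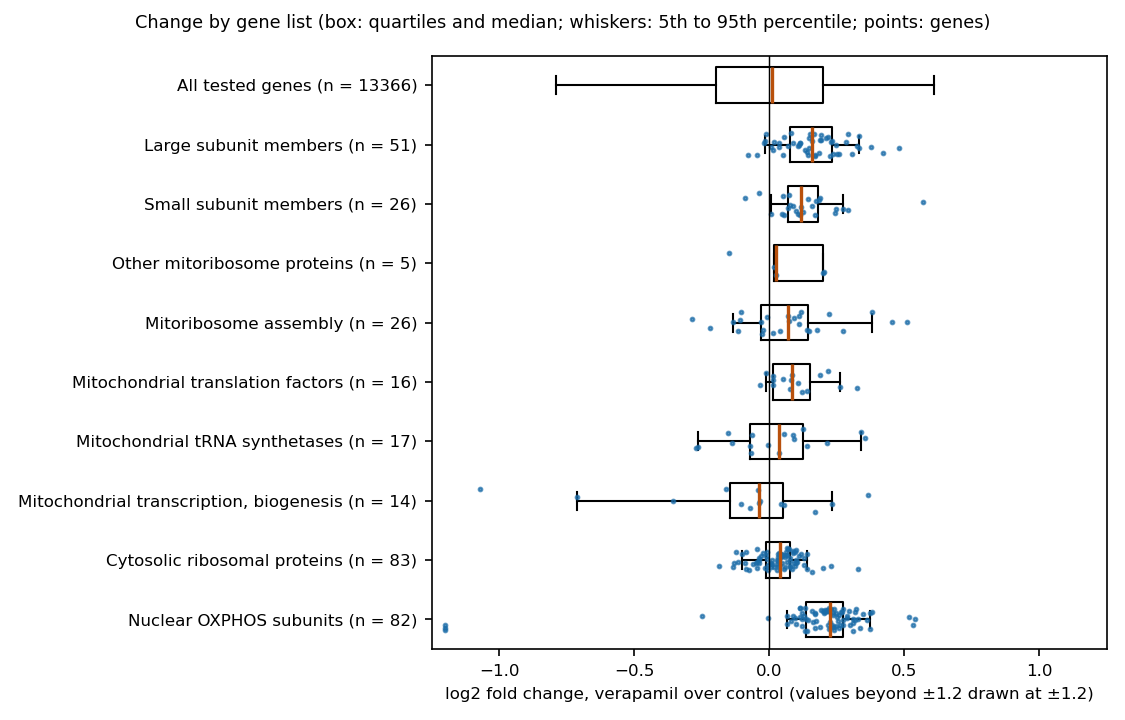
Log2 fold change by gene list (horizontal axis; box with quartiles and median, whiskers from the 5th to the 95th percentile, points for genes of lists under 200, with values beyond the axis drawn near its edge). The boxes of both subunits and of nuclear oxidative phosphorylation subunits lie right of 0. So do those of other mitoribosome proteins and mitochondrial translation factors, whose lower quartiles are 0.02 and 0.01. The box of cytosolic ribosomal proteins is centred at 0.04.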

How the data were processed

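RNA-seq gave 3 control and 3 verapamil-treated libraries. The authors deposited 1 table of estimated counts per gene, per the file headers, in which 67.7% of values are not whole. The genome was GRCm38 (mm10), per the submitters' processing notes; aligner, counter, annotation and strand use: not given in the sources used here. Estimated counts were rounded and tested with edgeR 4.0.16 (R 4.3.3; quasi-likelihood, robust, TMM scaling, filterByExpr with a minimum count of 10 and total of 15), which kept 13366 genes. The threshold was an adjusted p of 0.05 (Benjamini-Hochberg), and SE is the log2 fold change over the root of F. The procedure was tested on simulated data, with fold changes above the members' highest of 1.48. That simulation does not cover changes of the members' size. DESeq2 1.42.0 and limma-voom (limma 3.58.1), other scalings and filters, unrounded counts, a replicate block and leaving out each library were alternatives.

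Members and lists were chosen with earlier results of these data known. Named members are the 8 highest and 8 lowest changes that passed (mean of at least 5 CPM), the highest level per kb and the change closest to 0 in each of 4 subunit groups, and 7 genes named whatever their values; of other lists, the 2 largest changes that passed, or the most abundant gene. Gene positions, lengths and proteins follow GENCODE M21 on GRCm38, and start-site windows RefSeq's GRCm38.p6. Protein sequences were not used here.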

Additional observations from a re-analysis of the deposited data

How the results depend on the processing

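The 0 lower members held under every alternative, and among the 44 genes followed singly no called value changed direction. With library totals alone, 37 members were higher and their median log2 fold change was 0.23, while the median of all tested genes moved to 0.09. DESeq2's test called 12 members higher. At an adjusted p under 0.01, 1969 genes were called, 902 higher and 1067 lower, with 3 members higher, 3.85% of members against 6.75% of all tested genes. Leaving out 1 library at a time gave 2236 to 5042 called genes, 1010 to 2452 higher and 1222 to 2590 lower, with 4 to 23 members higher and a members' median of 0.12 to 0.17. With the replicate number as a block, 1364 genes (10.2%) and 7 members (8.97%) were higher. Deviations of same-numbered control and verapamil libraries correlated at -0.0284, -0.246 and -0.188 over genes, against -0.0579 to 0.23 for other pairs. Deviations from a group's own mean sum to 0, so these correlations are not independent. They cannot settle whether same-numbered libraries shared a culture or batch, and the labels link them by number alone. For 44 single genes, 559 of 704 values stayed on the same side of the threshold, 139 lost it, 6 gained it and 0 reversed. Of those that crossed it, 91 did so without 1 library. The 704 include values judged at an adjusted p under 0.01, where a call can be lost through the stricter threshold alone. The number of libraries and a median of 421.5 to 533 reads per member and library limit which changes of this size pass the test.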
